A study of Mus musculus with 4 samples.

Results

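Mitochondrial ribosomes are the translation machines of the mitochondrial matrix. They decode the few mRNAs of the mitochondrial genome, which encode subunits of the respiratory chain and ATP synthase. Their RNA is made inside the organelle, while every protein of their large and small subunit is encoded in the nucleus, made in the cytosol and imported. Genes of the large subunit are named Mrpl and those of the small subunit Mrps. Some encode relatives of bacterial ribosomal proteins and others encode proteins found only in mitochondria.

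The genes were measured in primary mouse embryonic fibroblasts, the connective tissue cells of an embryo taken into culture, on Affymetrix 1-colour arrays at passage 3. The groups were wild-type cells and RBP2-/- cells, here called RBP2-null, with 2 independent lines per genotype and 1 array per line. RBP2 is the histone H3 lysine 4 demethylase encoded by Kdm5a, and the question put to the arrays is which RNA levels are altered when it is missing. The part of the gene that is deleted, the strain and the age of the embryos are not given in the sources used here. Whether the lines came from separate embryos or litters is not stated either, so the p-values cover no more than how far these lines differ, which may be technical. In bulk RNA, fewer cells of a type and less RNA per cell cannot be told apart.

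Members were the probe sets annotated with exactly 1 symbol that starts with Mrpl or Mrps. Each probe set combines several short oligonucleotides against the same transcript. There were 156 such probe sets for 76 genes, out of 18193 genes with a probe set of 1 symbol, and each gene was read on its brightest probe set by mean over the 4 arrays. The large subunit had 47 genes and the small subunit 29. Of the 76 genes, 46 encode a protein with a bacterial ribosomal counterpart by textbook nomenclature, and the other 30 encode a protein without one. All 76 genes lay among the upper 60% of probe sets by signal, 27022 in number, on which the genotypes were tested. A further 4 probe sets that carry an Mrpl or Mrps symbol together with another were left out by the rule.

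The arrays differed in overall brightness, with trimmed means of the deposited signal from 61.7 in wild-type replicate 1 to 152 in RBP2-null replicate 2, a ratio of 2.46. Signals were therefore quantile normalized and are given as log2(signal + 9), on which fold changes of dim probe sets are understated. Across tested probe sets, wild-type replicate 1 correlated with the other arrays at 0.923 to 0.925, and those among themselves at 0.946 to 0.963, so wild-type replicate 1 stood apart. Fibroblast markers were all above the signal filter, 13 of 13, with a summed normalized signal of 41694 and 46940 in wild type and 42948 and 46922 in RBP2-null cells. The summed signal of 6 measured leukocyte markers, of which 4 were kept and Cd68 and Ptprc were not, was 377.2 and 266.0 in wild type and 225.6 and 239.6 in RBP2-null cells, highest in wild-type replicate 1. The sums of 4 epithelial markers (705.1, 537.2, 438.2 and 584.0 in wild-type replicates 1 and 2 and RBP2-null replicates 1 and 2) and of 3 skeletal muscle markers (112.2, 101.0, 78.5 and 91.2) were also highest there, with Cdh1 and Myog below the filter. The remaining lists were not highest there. In the same order, 4 endothelial markers, with Pecam1 below the filter, summed to 109.8, 119, 112 and 119.2. The sums were 134, 141.8, 143.4 and 130.5 for 3 neural markers, and 5.4, 19.5, 43.5 and 21.8 for 1 measured erythroid marker. The fibroblast sum is carried by vimentin (Vim), fibronectin and collagens. As deposited and not normalized, every marker of this list was lowest in wild-type replicate 1, the array with the lowest trimmed mean. In the same order, deposited signals were 6579, 9406.4, 9840.9 and 11412.9 for Vim and 31.9, 491.5, 129.6 and 696.5 for Pdgfra. For Fap they were 15.2, 146.5, 76.7 and 103. On the same deposited scale, Epcam had 357.4, 403.5, 244.4 and 731, and Csf1r had 88.3, 137.4, 84 and 178.6. Of the leukocyte, epithelial and skeletal muscle markers, Fcer1g, Tyrobp, Ptprc and Myog were highest in wild-type replicate 1 as deposited. The others of these lists were not. The part of these markers in the results below was not tested.

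No mitochondrial ribosomal protein gene passed an adjusted p of 0.05 between genotypes, and their fold changes were small and lay on both sides of 0. Of the 76 genes, 44 lay above 0 in log2 fold change and 32 below. Their median was 0.040, where 50.3% of all tested probe sets lay above 0 with a median of 0.0027. This split moved with the scaling, to 69 of 76 above 0 with median-centred arrays and 76 as deposited. The lowest value was -0.40, for Mrpl40, and the highest was 0.79, for Mrps9. The smallest adjusted p in limma (Benjamini-Hochberg over all 27022 probe sets) was 1.00, and 0 of the 76 genes had an unadjusted p under 0.05. Over all tested probe sets, 1 passed the adjusted threshold, or 0.00370%, and 2.95% had an unadjusted p under 0.05. The median standard error of a member was 0.24, against 0.32 over all tested probe sets. For 70 of the 76 genes the 95% interval of the fold change lay within a log2 change of 1 in either direction, as it did for 51.6% of all tested probe sets. The others were Mrps9, Mrps5, Mrps11, Mrps27, Mrpl45 and Mrpl55.

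**Figure D1:**
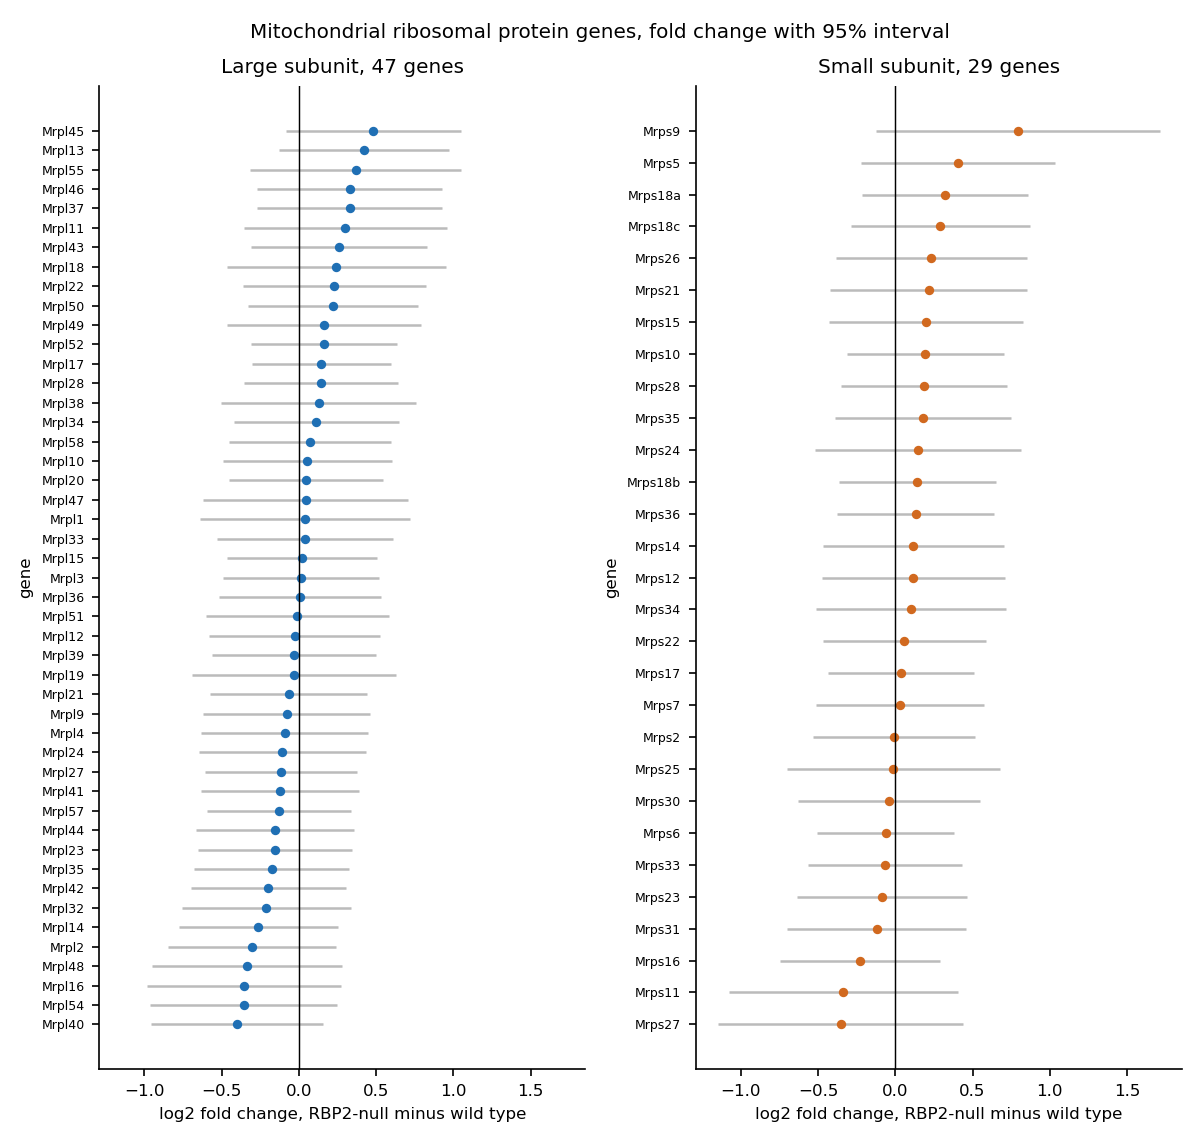
Log2 fold change (RBP2-null minus wild type, horizontal axis) of each mitochondrial ribosomal protein gene (vertical axis), with the limma estimate as a point and its 95% interval as a line, for 47 large subunit genes and 29 small subunit genes. All 76 intervals include 0, and the estimates run from -0.40 for Mrpl40 to 0.79 for Mrps9.

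Both RBP2-null arrays lay above both wild-type arrays for 16 of the 76 genes and below both for 9, where 14.6% and 14.9% of all tested probe sets did so. That is 21.1% and 11.8% of the members. The genotype difference exceeded the difference between lines within each genotype for 11 of the 76 genes, against 17.5% of all tested probe sets. The median absolute log2 difference between the lines was 0.22 within wild type and 0.20 within RBP2-null cells. The median absolute genotype difference, between means of 2 arrays and so smaller by construction, was 0.15. Over all tested probe sets these values were 0.35, 0.30 and 0.21.

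Small subunit genes lay slightly higher than large subunit genes. The median log2 fold change was 0.013 in the large subunit, with 25 of 47 genes above 0, and 0.12 in the small subunit, with 19 of 29 above 0. Both RBP2-null arrays lay above both wild-type arrays for 7 of the large (14.89%) and 9 of the small (31.03%) subunit genes. They lay below both for 8 (17.02%) and 1 (3.45%). Over all tested probe sets these shares were 14.6% above and 14.9% below. Taking each gene's deviation from its own mean over the 4 arrays, the median of the large subunit minus that of the small subunit was 0.098 and 0.015 in wild type and -0.069 and -0.063 in RBP2-null cells. The RBP2-null arrays thus lay below both wild-type arrays in this balance, by an amount comparable to the gap between the wild-type lines, and the difference was not tested because the members are not replicates. Without wild-type replicate 1 the difference of the medians, large minus small, was -0.033, against -0.10 with all arrays, and the small subunit median was 0.019. Counting Mrps18a and Mrps30 in the large subunit, where structures place their proteins, and leaving out Mrps36, whose protein is now assigned to a metabolic enzyme complex, gave 0.013 and 0.11.

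For the 46 genes with a bacterial counterpart the median was 0.040, and for the 30 without one it was 0.024. Within the small subunit the medians were 0.14 over 17 genes with a bacterial counterpart and 0.022 over 12 without. Within the large subunit they were 0.013 over 29 and 0.031 over 18. The interquartile ranges of these 4 classes overlapped, and the differences between them were not tested.

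**Figure D2:**
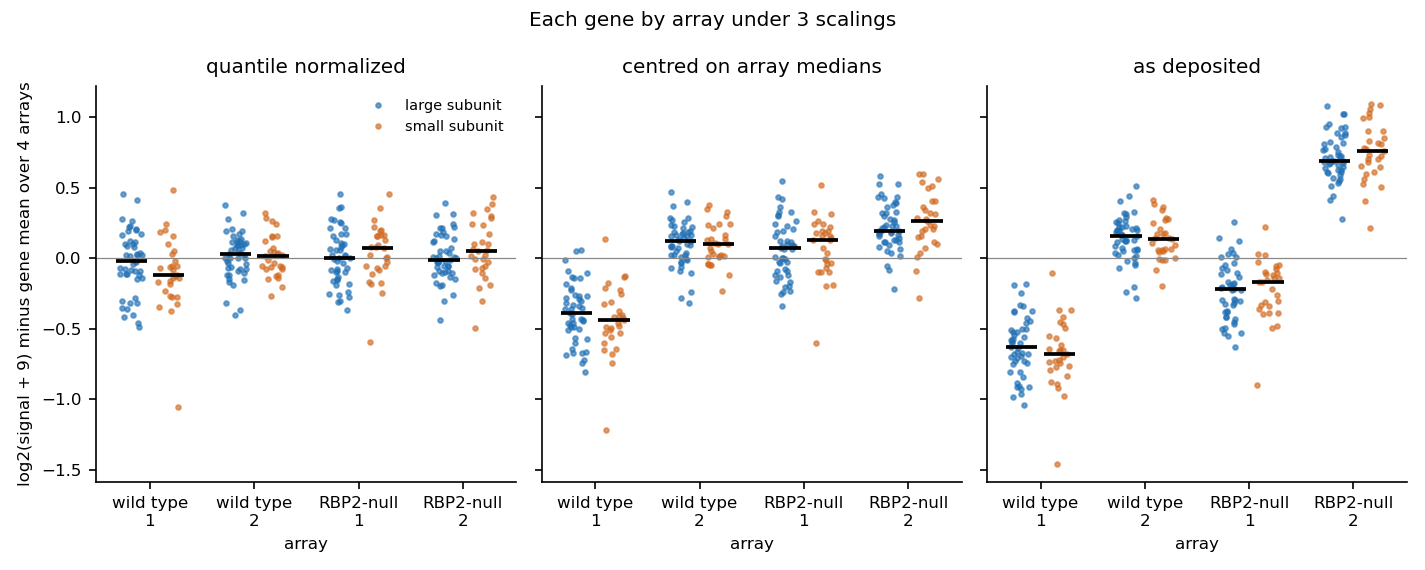
Deviation of each gene from its own mean over the 4 arrays (vertical axis, log2(signal + 9)) by array (horizontal axis) for large subunit genes (blue) and small subunit genes (orange), with black bars at the medians, under quantile normalization, with arrays centred on their medians and as deposited. Wild-type replicate 1 is the lowest array for 30, 66 and 70 of the 76 genes in the 3 panels, and for 31.4%, 54.3% and 61.5% of all tested probe sets.

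Mrps9, a conserved small subunit protein whose bacterial relative reaches toward the tRNA in the ribosome, had the highest fold change. Its normalized log2 signal was 6.02 and 7.34 in wild type and 7.43 and 7.51 in RBP2-null cells. The groups did not overlap, but wild-type replicate 2 lay within 0.2 of both RBP2-null lines and wild-type replicate 1 alone was low. The log2 fold change was 0.79 ± 0.40 (SE, n = 2 per genotype as for every member), its interval ran from -0.13 to 1.71, and it was 0.14 without wild-type replicate 1. Leaving out wild-type replicate 2 gave 1.44, and its limma adjusted p of 0.0958 was then the smallest of any member. In that fit wild type is represented by replicate 1 alone, the array that stood apart, and the spread comes from the RBP2-null lines. The other kept Mrps9 probe sets had 0.35, 0.15 and -0.24.

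Mrpl45, which lies at the exit of the nascent chain tunnel and tethers the ribosome to the inner membrane, had a normalized log2 signal of 7.20 and 7.55 in wild type and 7.89 and 7.83 in RBP2-null cells. Its log2 fold change was 0.48 ± 0.25 (SE). The groups did not overlap, and the gap to the nearest wild-type line was smaller than the gap between the wild-type lines. Mrpl13, a large subunit protein with a bacterial counterpart, had 8.41 and 8.60 in wild type and 9.17 and 8.69 in RBP2-null cells, so RBP2-null replicate 1 was the high array. Its log2 fold change was 0.42 ± 0.24 (SE), and it ran from 0.18 without that array to 0.66 without RBP2-null replicate 2. The other kept Mrpl13 probe sets had 0.34 and 0.36, on the same side of 0.

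Mrps5, whose bacterial relative bears on the accuracy of decoding, had a normalized log2 signal of 6.22 and 6.09 in wild type and 6.52 and 6.59 in RBP2-null cells. Lines of 1 genotype lay close together here, with standard deviations of 0.092 and 0.050 (n = 2 each). The log2 fold change was 0.40 ± 0.28 (SE), and the other kept Mrps5 probe sets had 0.58, 0.35 and 0.18. Mrps5 was thus higher in RBP2-null cells on each of its kept probe sets, without passing the threshold. Mrps18a, which structures place in the large subunit despite its name, had 7.56 and 7.61 in wild type and 8.02 and 7.80 in RBP2-null cells, a log2 fold change of 0.32 ± 0.24 (SE). Mrpl46, a protein known only from mitochondria, had 7.6 and 7.12 in wild type and 7.69 and 7.68 in RBP2-null cells. Its log2 fold change was 0.33 ± 0.26 (SE), and it ran from 0.092 without wild-type replicate 2 to 0.58 when wild-type replicate 1 was left out.

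On the other side, Mrpl40, a mitochondria-specific large subunit protein, had a normalized log2 signal of 7.89 and 7.88 in wild type and 7.32 and 7.66 in RBP2-null cells. The wild-type lines coincided and both RBP2-null lines were lower. The log2 fold change was -0.40 ± 0.24 (SE), and its interval ran from -0.96 to 0.16. Mrpl54, also known only from mitochondria, had 7.18 and 7.58 in wild type and 7.11 and 6.94 in RBP2-null cells, a log2 fold change of -0.36 ± 0.27 (SE). Its groups did not overlap, but wild-type replicate 1 lay close to RBP2-null replicate 1. The value for Mrpl54 was -0.15 without wild-type replicate 2 and -0.57 with wild-type replicate 1 left out.

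Mrpl2, whose bacterial relative supports the peptidyl transferase centre, had a normalized log2 signal of 8.34 and 8.12 in wild type and 7.77 and 8.08 in RBP2-null cells, a log2 fold change of -0.30 ± 0.24 (SE). It was -0.15 without RBP2-null replicate 1 and -0.46 with RBP2-null replicate 2 left out. Mrpl14, a protein of the subunit interface that the assembly factor Malsu1 binds, had 8.34 and 8.15 in wild type and 8.03 and 7.94 in RBP2-null cells, a log2 fold change of -0.26 ± 0.23 (SE). Both genes were lower in both RBP2-null lines. Mrpl16, which has a bacterial counterpart, had 9.29 and 8.73 in wild type and 8.92 and 8.40 in RBP2-null cells. Mrpl48, without one, had 7.94 and 7.46 in wild type and 7.50 and 7.23 in RBP2-null cells. In both of these genes the groups overlapped, and in each genotype replicate 2 was below replicate 1. The log2 fold changes were -0.35 for Mrpl16 and -0.33 for Mrpl48, with SE of 0.28 and 0.27. They were -0.076 and -0.094 without wild-type replicate 1, and -0.63 and -0.58 when wild-type replicate 2 was left out.

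Several members differed more between the replicate numbers than between the genotypes. Of the 76 genes, 5 had an unadjusted limma p under 0.05 for replicate 2 against replicate 1. That is a smaller share than the 9.43% of all tested probe sets. The 5 genes were Mrps11, Mrpl16, Mrpl51, Mrps14 and Mrps21. The labels give no litter, day or batch for the numbers. Mrps21, a conserved small subunit protein, had a normalized log2 signal of 8.22 and 8.75 in wild type and 8.42 and 8.98 in RBP2-null cells, so replicate 2 was higher in both genotypes. Mrps14 went the same way, with 8.52 and 8.96 in wild type and 8.62 and 9.10 in RBP2-null cells. Mrps11 went the other way, with 7.83 and 7.20 in wild type and 7.51 and 6.85 in RBP2-null cells. Its replicate difference of -0.64 was larger in size than its genotype difference of -0.34. Mrps27, a pentatricopeptide repeat protein, had 6.36 and 6.65 in wild type and 5.74 and 6.57 in RBP2-null cells, and RBP2-null replicate 1 alone was low. Its log2 fold change of -0.35 was 0.064 without that array and -0.73 without RBP2-null replicate 2.

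The probe sets of a gene often differed in direction. Of the 37 members with at least 2 kept probe sets, 20 had estimates on both sides of 0 and 17 on 1 side. The 8 brightest of these 20 were Mrps6, Mrpl52, Mrpl51, Mrpl39, Mrpl3, Mrpl15, Mrpl44 and Mrpl27. Mrpl44, which carries a ribonuclease-like domain, had -0.15 ± 0.23 (SE) on the brightest probe set as its log2 fold change, and 0.57, 0.26 and 0.78 on the others. The brightest probe set and the other 3 therefore gave opposite directions for this gene. Mrpl51 had -0.0092 and 0.39, Mrps6 had -0.063 and 0.20, and Mrpl52 had 0.16, -0.18 and 0.29. Mrpl15 had 0.021 on its brightest probe set and 0.67 at the highest of 5 kept ones. Its estimates below 0 were close to 0, at -0.016 ± 0.30 and -0.049 ± 0.25 (SE). Mrpl39, Mrpl3 and Mrpl27 had estimates that differed in sign but lay within 0.13 of 0 on each kept probe set. The brightest probe set carried the suffix _s_at or _x_at, which marks probes that can bind other transcripts, for 7 of the 76 genes.

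**Figure D3:**
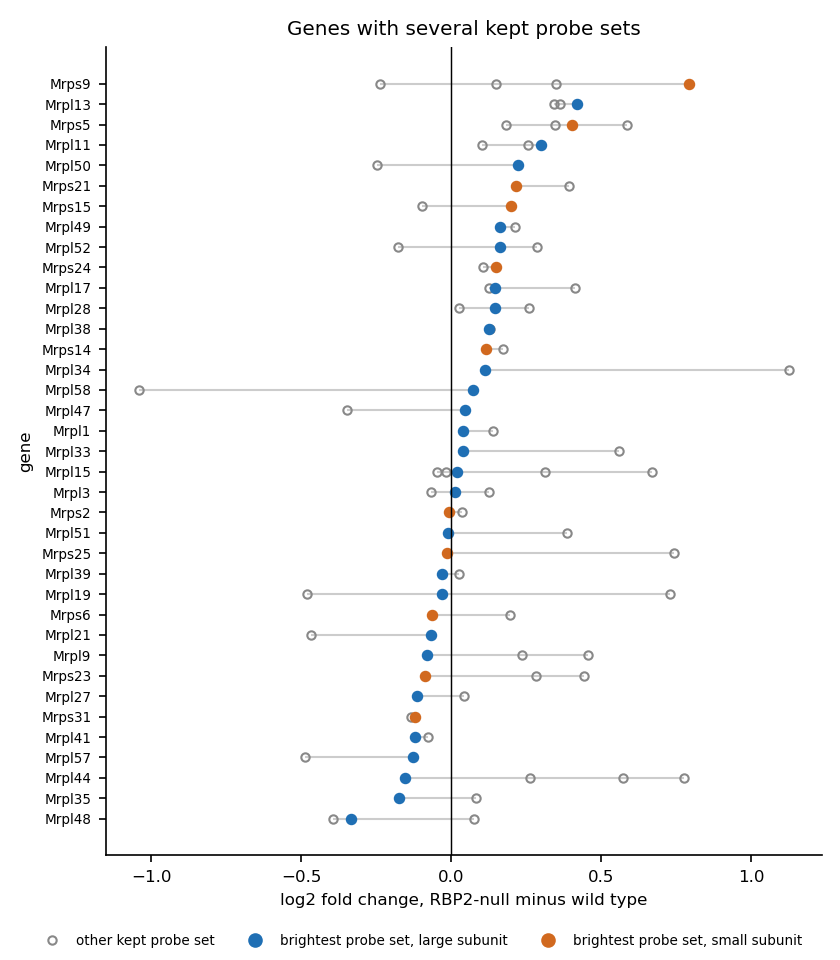
Log2 fold change (RBP2-null minus wild type, horizontal axis) of the brightest probe set (filled, blue for large and orange for small subunit) and of each other kept probe set (open circles) for the 37 genes with at least 2 kept probe sets (vertical axis). For 20 genes the points lie on both sides of 0, among them Mrpl44, with -0.15 on the brightest and up to 0.78 on another.

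The members' median lay above 0 under each of 4 scalings of the arrays, and the scaling set its size and how many genes lay above 0. With values as deposited, 76 of the 76 genes had a log2 fold change above 0, with a median of 0.52. With each array centred on its median log2 signal, 69 were above 0, with a median of 0.32. With arrays brought to a common trimmed mean, 49 were above 0, with a median of 0.065, close to the 44 and 0.040 under quantile normalization. Since all 76 lay above 0 as deposited, each of the 32 genes below 0 under quantile normalization turned sign with the scaling. Those of the 32 with the smallest p were Mrpl40, Mrpl54, Mrpl16 and Mrpl2. Mrpl40 had -0.40 when quantile normalized, -0.14 when median-centred and 0.058 as deposited. Under each of these 4 scalings 0 of the 76 genes passed an adjusted p of 0.05 in limma, where 0.00740% of all tested probe sets passed when median-centred, 0.00740% with a common trimmed mean and 0% as deposited. An unadjusted p under 0.05 was found for 1 gene when median-centred, Mrps9 with 0.92 ± 0.42 (SE) and an adjusted limma p of 0.963, and for 0 under the other 3, beside 3.48% of all tested probe sets when median-centred, 3.02% with a common trimmed mean and 0.773% as deposited.

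All tested probe sets moved with the scaling as well. The share of them above 0 was 84.3% as deposited, 70.6% when median-centred, 45.3% with a common trimmed mean and 50.3% when quantile normalized, and their medians were 0.38, 0.18, -0.035 and 0.0027. Relative to those medians, the members' median lay higher by 0.13 as deposited, 0.13 when median-centred, 0.10 with a common trimmed mean and 0.037 when quantile normalized. For the large subunit the same distances were 0.091, 0.091, 0.071 and 0.011, and for the small subunit 0.17, 0.17, 0.15 and 0.11. The small subunit median exceeded the large subunit median under each of the 4 scalings, by 0.079 to 0.10. Centring on array medians shifts the fold change of every gene by the same amount. These distances and the subunit difference are therefore identical by construction as deposited and when median-centred, and do not count as separate agreement. When median-centred, both RBP2-null arrays lay above both wild-type arrays for 28 of the 76 genes and below for 1, where 23.6% and 8.05% of all tested probe sets did so. As deposited these counts were 12 and 0, beside 14.5% and 2.44%.

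**Figure D4:**
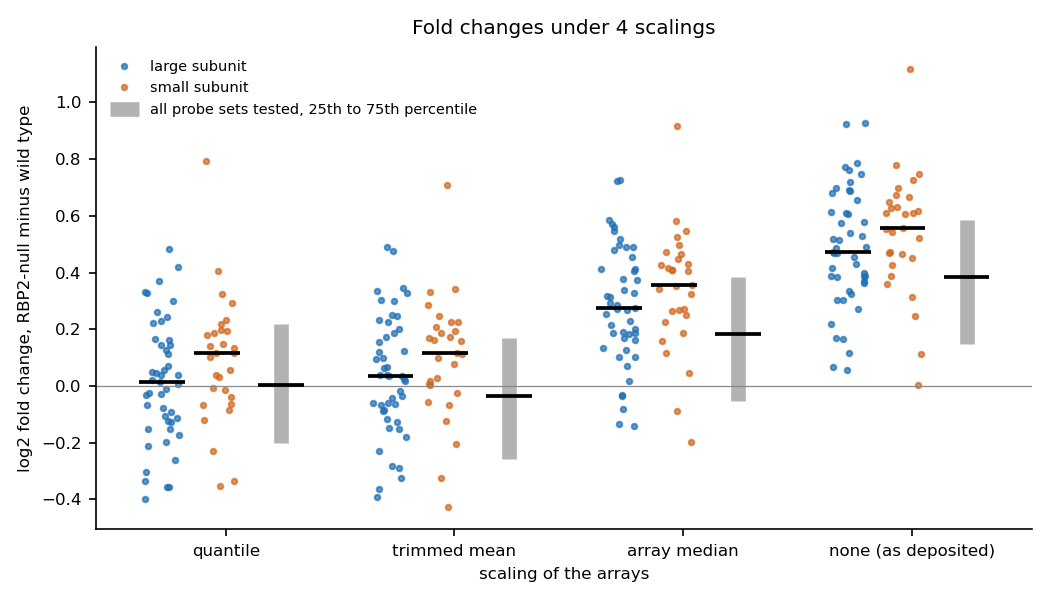
Log2 fold change (RBP2-null minus wild type, vertical axis) of each large subunit gene (blue) and small subunit gene (orange) under 4 scalings of the arrays (horizontal axis), with medians as black bars and the 25th to 75th percentile of all tested probe sets in grey. The genes lie on both sides of 0 under quantile normalization, with a median of 0.040, and 76 of 76 lie above 0 as deposited, with a median of 0.52.

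Wild-type replicate 1 moved with the group shift. When median-centred, it was the lowest of the 4 arrays for 66 of the 76 genes, and for 54.3% of all tested probe sets. Under quantile normalization it was the lowest for 30 genes, or 39.5%, against 31.4% of all tested probe sets. Leaving it out brought the median-centred median of the members from 0.32 to 0.047, with 48 of 76 above 0, and that of all tested probe sets from 0.18 to 0.023, with 53.2% above 0. Without wild-type replicate 2 the median-centred values were 0.57 and 0.32, leaving out RBP2-null replicate 1 gave 0.39 and 0.23, and leaving out RBP2-null replicate 2 gave 0.22 and 0.14. Under quantile normalization the members' median was -0.0012 without wild-type replicate 1, with 38 of 76 above 0, and 0.087 without wild-type replicate 2. The deposited signal of wild-type replicate 1 was also distributed differently, with a 75th percentile 2.82 times the median, against 3.5, 3.53 and 3.65 on wild-type replicate 2 and RBP2-null replicates 1 and 2. The part of this distribution in the shift was not tested.

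**Figure D5:**
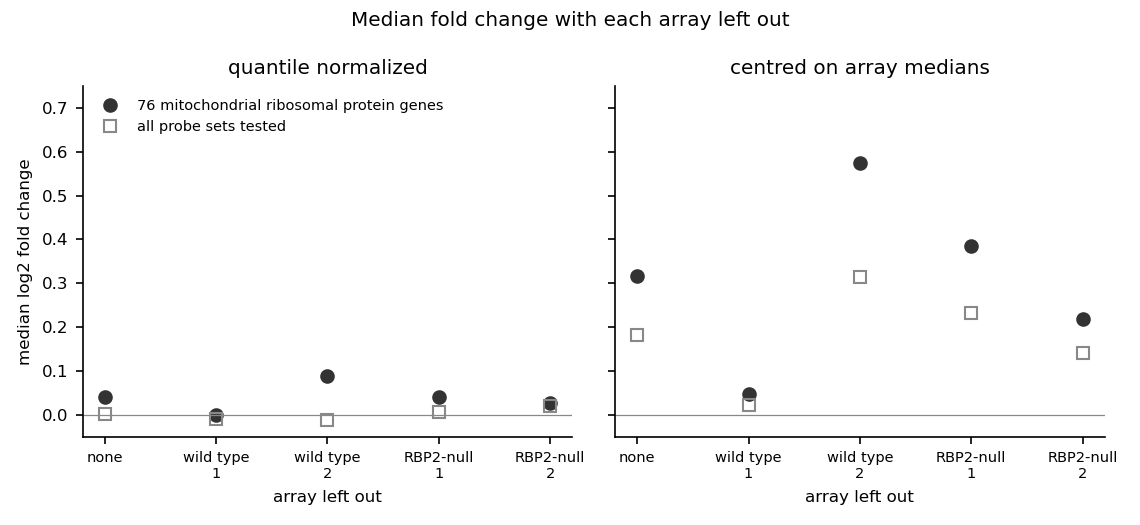
Median log2 fold change (RBP2-null minus wild type, vertical axis) of the 76 mitochondrial ribosomal protein genes (filled circles) and of all tested probe sets (open squares) with no array or 1 array left out (horizontal axis), under quantile normalization and with arrays centred on their medians. When median-centred, the members' median falls from 0.32 to 0.047 without wild-type replicate 1.

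A list of genes for mitochondrial translation and RNA also had no call. It holds translation factors, assembly factors, rRNA-modifying enzymes, aminoacyl-tRNA synthetases, ribosome subunits under other symbols, and genes of mitochondrial transcription and RNA stability such as Polrmt, Tfam and Lrpprc. Matching by synonym also brought in Vars and Dtd1, which are not mitochondrial ribosome genes. Of this list 59 genes were measured, 56 of them above the filter. Their median was 0.083, 37 of the 59 were above 0 and 22 below, and 0 passed the threshold in limma, with 1 at an unadjusted p under 0.05, beside 2.95% of all tested probe sets. When median-centred the median was 0.27, with 44 above 0, 0 calls and 4 genes at an unadjusted p under 0.05, beside 3.48%, and as deposited it was 0.47, with 54 above 0. The gene under quantile normalization was Ddx28, a helicase needed to assemble the large subunit, with a normalized log2 signal of 6.68 and 6.36 in wild type and 5.67 and 5.80 in RBP2-null cells and a log2 fold change of -0.79 ± 0.30 (SE). Both RBP2-null lines were well below both wild-type lines. Malsu1, the large subunit assembly factor that binds Mrpl14, had 7.87 and 7.61 in wild type and 8.18 and 8.26 in RBP2-null cells, a log2 fold change of 0.48 ± 0.23 (SE). Noa1, a GTPase of small subunit assembly, had 5.33 and 6.52 in wild type and 6.96 and 6.61 in RBP2-null cells. Tsfm, which recharges the mitochondrial elongation factor, had 5.55 and 6.43 in wild type and 6.65 and 6.85 in RBP2-null cells. In both Noa1 and Tsfm the groups did not overlap and wild-type replicate 1 was far below the other arrays.

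Other large complexes gave similar medians. Nuclear-encoded subunits of oxidative phosphorylation, 91 genes, had a median of 0.0028 under quantile normalization and 0.26 when median-centred, with 46 and 81 above 0. Cytosolic ribosomal proteins, 46 genes, had 0.026 and 0.23, with 24 and 41 above 0. The mitochondrial ribosomal proteins, with 0.040 and 0.32, were not tested against these lists.

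Some promoter features were more frequent among the members than among all protein-coding genes. RefSeq windows on GRCm38.p6, from 250 bases before to 50 after a transcription start, were found for 67 of the 76 genes. Motifs were searched by their letters on both strands, each on its own, so matches of different motifs can overlap. NRF1-like letters were GCGCA and GCGC with any 1 base between, or the reverse complement. They were in the windows of 12 of the 67 genes (17.9%), against 7.17% of 17492 protein-coding genes. NRF1 is a factor known to bind promoters of nuclear genes for mitochondrial proteins. The ETS core CCGGAAG, bound by GABP among others, was in 25 (37.3%) against 12.9%, and the YY1-like ATGGCGGC in 11 (16.4%) against 3.5%. By contrast CCAAT was in 38.8% against 42.3%, the E-box CACGTG in 7.46% against 8.91% and TATAAA in 7.46% against 14.8%. The members' windows also held more CpG dinucleotides, with a median of 21 against 15. The first 3 motifs and the E-box contain CG, and the part of CpG content in these shares was not tested. A match is a description of letters and not a binding site.

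Members with and without a motif were also set side by side in genotype difference, with no test. The median log2 fold change was -0.028 for the 12 genes with the NRF1-like letters and 0.040 for the 55 without. For the ETS core it was 0.071 over 25 genes with it and 0.019 over 42 without, and for the YY1-like letters -0.039 over 11 and 0.040 over 56.

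To show promoters from either side of 0, the 3 genes with the smallest p in each direction that have exactly 1 RefSeq window were taken. This passed over Mrpl13 and Mrpl54, without a window, and Mrpl2 and Mrpl48, with several. The stretch from 140 bases before to 15 after the start is given for Mrps9, Mrpl45 and Mrps5, which had estimates above 0, and for Mrpl40, Mrpl16 and Mrpl14, below 0. They are on GRCm38.p6, written 5′ to 3′ on the gene's strand, with any of the 6 motifs in capitals.
Mrps9, chr1:42851093-42851247, + strand: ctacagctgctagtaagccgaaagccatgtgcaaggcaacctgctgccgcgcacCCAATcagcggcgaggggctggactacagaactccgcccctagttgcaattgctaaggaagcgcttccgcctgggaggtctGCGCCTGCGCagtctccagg
Mrpl45, chr11:97315576-97315730, + strand: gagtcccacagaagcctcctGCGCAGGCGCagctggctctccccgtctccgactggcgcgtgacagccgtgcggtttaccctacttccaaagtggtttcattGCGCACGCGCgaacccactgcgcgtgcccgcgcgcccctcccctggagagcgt
Mrps5, chr2:127587286-127587440, + strand: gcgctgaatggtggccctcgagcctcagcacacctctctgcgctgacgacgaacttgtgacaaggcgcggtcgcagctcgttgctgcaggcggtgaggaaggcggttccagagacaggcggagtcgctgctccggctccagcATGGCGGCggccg
Mrpl40, chr16:18876623-18876777, - strand: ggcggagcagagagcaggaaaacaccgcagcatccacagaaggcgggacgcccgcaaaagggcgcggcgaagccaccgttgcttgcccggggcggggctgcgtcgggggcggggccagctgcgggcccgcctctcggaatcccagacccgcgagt
Mrpl16, chr19:11770275-11770429, + strand: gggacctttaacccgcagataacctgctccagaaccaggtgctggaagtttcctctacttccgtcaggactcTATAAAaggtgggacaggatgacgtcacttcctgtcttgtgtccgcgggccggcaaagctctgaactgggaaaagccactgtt
Mrpl14, chr17:45686209-45686363, + strand: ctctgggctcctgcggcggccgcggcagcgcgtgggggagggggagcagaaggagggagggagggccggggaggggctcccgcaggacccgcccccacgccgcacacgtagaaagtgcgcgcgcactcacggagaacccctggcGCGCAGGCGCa
The NRF1-like letters stand in Mrps9, there as the reverse complement, and in Mrpl45 and Mrpl14.

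Many members start head to head with another gene. Counting a protein-coding start on the opposite strand within 1000 bases upstream, or overlapping by up to 100, 24 of the 67 genes (35.8%) had such a neighbour, against 8.66% of protein-coding genes in the same windows. Among them were Mrpl43 with Twnk, the mitochondrial DNA helicase, 116 bases apart, Mrps12 with Sars2, the mitochondrial seryl-tRNA synthetase, 147 apart, and Mrpl47 with the respiratory subunit gene Ndufb5, 308 apart. Mrpl46 and Mrps11 share 1 such stretch, with 42 bases between their starts. It is shown with 15 bases on either side, on the strand of Mrps11, GRCm38.p6, and holds none of the motifs searched.
Mrpl46 and Mrps11, chr7:78783074-78783146, + strand: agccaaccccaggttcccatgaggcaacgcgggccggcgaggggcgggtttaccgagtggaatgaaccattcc
The members of this pair had estimates on opposite sides of 0, with 0.33 ± 0.26 (standard error) for Mrpl46 and -0.34 ± 0.33 for Mrps11, both of whose 95% intervals include 0. Within wild type both were lower in replicate 2, and within RBP2-null cells Mrps11 was lower in replicate 2 while the lines did not differ in Mrpl46 beyond 0.01.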

How the data were processed

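The authors deposited a linear intensity for each of 45101 probe sets on every array, 64 of them controls. No label or header used here names the probe summary or background correction. Genes were named from a platform annotation table. Because trimmed means (2% off each end) differed by more than 10%, intensities were quantile normalized, 9 (the 25th percentile, rounded) was added, and log2 was taken. Controls and the lower 40% of probe sets by mean were left out. Genotypes were compared (RBP2-null minus wild type) by limma 3.58.1 in R 4.3.3 (lmFit, eBayes with a mean-dependent prior variance), two-sided, with Benjamini-Hochberg adjustment over 27022 probe sets and a threshold of 0.05. The number of arrays limits the precision, and an exact permutation test of 2 lines against 2 cannot go below 0.333. The procedure was tested on simulated data with independent noise and a brightness factor for each array. That simulation did not include the different signal distribution of wild-type replicate 1. Named genes are those with the 6 smallest p in each direction, the 4 largest replicate differences, up to 8 with probe sets of opposite sign, up to 4 whose sign turns with scaling, and up to 4 of a comparison list. Mrpl55, Mrpl47, Mrpl43, Mrps12 and Mrps14 were named after their values were seen. The members and lists were chosen with earlier results of these data known. Alternatives covered scaling, pseudocount, filter, variance model, replicate block, probe set choice, each array left out and, added after seeing the data, the subunit of Mrps18a, Mrps30 and Mrps36.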

Additional observations from a re-analysis of the deposited data

How the results depend on the processing

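No mitochondrial ribosomal protein gene was called under any setting run, and the smallest adjusted p of a member was 0.0958, without wild-type replicate 2. The count of called probe sets was 1, and it was 2 with median-centred arrays or a common trimmed mean, 0 without scaling, without the filter or without the mean-dependent variance, and 1 to 41 with an array left out, the 41 being without wild-type replicate 2, where wild type is 1 array assumed to vary like the RBP2-null lines. With the replicate number as a block it was 39, with 0 members among them and a smallest member adjusted limma p of 0.479. The deviations of same-numbered lines correlated at 0.11 over tested probe sets and 0.27 over the members, and the numbers were not taken as pairs. The median log2 fold changes of all members, large and small subunit were 0.32, 0.27 and 0.36 with median-centred arrays and 0.52, 0.47 and 0.56 without scaling. With the mean of kept probe sets the large subunit had 0.048, and with probe sets of no _a, _s or _x suffix, which leaves 62 genes, the large minus small difference was -0.16. With an array left out, the median of all members ran from -0.0012 to 0.087, that of the large subunit from -0.014 to 0.014, that of the small subunit from 0.019 to 0.16, and their difference from -0.14 to -0.033. Of the 23 named genes, the following turned sign, and the cause was not tested. With median-centred arrays Mrpl14 had 0.019, Mrps6 0.27, Mrpl51 0.29, Mrpl39 0.27, Mrpl44 0.13 and Mrpl27 0.17. Without scaling Mrpl40 had 0.058, Mrpl54 0.068, Mrpl16 0.17, Mrpl2 0.17, Mrpl48 0.12, Mrpl14 0.22, Mrps11 0.11, Mrps27 0.0040, Mrps6 0.47, Mrpl51 0.49, Mrpl39 0.47, Mrpl44 0.34 and Mrpl27 0.37. With a common trimmed mean Mrps6 had 0.0086, Mrpl51 0.037 and Mrpl39 0.018. With the mean of kept probe sets Mrps6 had 0.066, Mrpl51 0.19 and Mrpl44 0.37. With probe sets of no such suffix Mrps6 had 0.20, Mrpl51 0.39, Mrpl39 0.025, Mrpl15 -0.34 (a probe set below the signal filter) and Mrpl44 0.26. With an array left out the ranges were -0.058 to 0.49 for Mrps21, -0.22 to 0.089 for Mrps6, -0.11 to 0.14 for Mrpl3, -0.051 to 0.091 for Mrpl15, -0.32 to 0.30 for Mrpl51, -0.73 to 0.064 for Mrps27 and -0.26 to 0.20 for Mrpl39.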
